A study of Mus musculus with 4 samples.

Results

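The 10 genes described here encode the parts of the T cell antigen receptor that pass a signal into a CD8+ T cell. They are Cd3d, Cd3e, Cd3g and Cd247 for the signalling chains, Cd8a and Cd8b1 for the coreceptor, Lck, Zap70 and Lat for the proximal kinases and their adaptor, and Cd5 for a surface receptor that tunes the signal. They were picked by name for their function, with earlier results of these data known, and each symbol was matched to 1 Ensembl identifier. They were 10 of the 17561 genes in the expression table and held 0.706% of all unique molecular identifiers (UMIs), each of which stands for 1 captured RNA molecule. Their levels were measured in CD8+ T cells sorted from the BM of mice 4 weeks after stem cell transplantation (SCT), with 1 library for each of 4 treatments and 5 mice pooled per library. By the study's text, the recipients had been injected with myeloma cells before the transplant. The treatments were isotype antibody with vehicle (cIg), αTIGIT with vehicle, isotype antibody with lenalidomide, and αTIGIT with lenalidomide. Antibody was given from the day of transplant, and lenalidomide from day 14 on, with harvest on day 28. The mice of all 4 groups were on a C57BL/6 background, either WT or CRBN transgenic, and had been grafted with 10000000 BM cells and, by the labels, 5000000 T cells from genetically matched donors. The labels give neither the ages of the mice nor which groups carried the transgene. The deposited tables number the libraries 1 to 4 without saying which treatment each number stands for, so no treatment is compared here.

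The T cell receptor binds peptide on an MHC molecule but has no signalling domain of its own. It is carried to the surface by the CD3 γ, δ and ε chains and by the ζ chain, the product of Cd247, all of which hold ITAM motifs. CD8 binds the MHC class I molecule from the side and brings the kinase Lck to the receptor. Lck phosphorylates the ITAMs, ZAP-70 docks on them and phosphorylates LAT, and LAT then assembles the enzymes of the downstream cascades. CD8 is made as an αβ heterodimer in conventional CD8+ T cells or as an αα homodimer. CD5 is known to dampen receptor signalling and to be set by the strength of that signal in the thymus.

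Libraries 1 to 4 held 4237, 2003, 1725 and 3789 cells and between 15556967 and 38440687 UMIs. The 8 clusters that the authors named were naive cells (Tn), central memory cells (Tcm), transitory Teff, GzmB+ Teff, GzmA+ Tex, TIM-3+ Tex, TIGIT+ Teff and cycling cells. Between 31 and 1387 cells fell in a cluster of a library, with the fewest in TIM-3+ Tex of library 3. The authors kept cells on expression of Cd3e/g and Cd8a, so shares of cells with these transcripts were set in part by that filter. Even so, 1159 cells (9.86%) had 0 Cd8a UMIs, 525 had UMIs of neither CD8 chain and 14 had UMIs of neither Cd3e nor Cd3g. Cd4 gave 19 UMIs in the whole table. No cluster in the table should lack the 10 genes, so the level that free RNA alone would give could not be measured for them. Cell barcodes were mostly unique to a library, and 56 of them occurred in 2 libraries. In GzmA+ Tex a list of 10 macrophage genes summed to 1214 to 1958 CPM (UMIs of a gene for each 1000000 UMIs of the cells), against 71.4 to 225 CPM elsewhere, and its part in the values of that cluster was not tested. Lists of B and plasma cell, neutrophil and erythroid genes summed to 61.7 to 566, 0 to 107 and 0 to 118 CPM, each with its highest library in GzmA+ Tex. An alternative left out cells with 3 or more UMIs of all these lists together. Under it, Cd3d and Lat changed sign in GzmA+ Tex against the other Teff and Tex clusters, and the other members kept theirs.

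The genes of the CD3 γ, δ and ε chains lie side by side on chromosome 9 (GRCm38). Cd3g (44969572 to 44980431, minus strand) and Cd3d (44981786 to 44987339, plus strand) start 1355 bases apart and point away from each other, and Cd3e (44998740 to 45009627, minus strand) ends 11401 bases from Cd3d. Cd8b1 (71322788 to 71337494) and Cd8a (71373427 to 71379173) follow each other on the plus strand of chromosome 6, 35933 bases apart. The stretches from 250 bases before to 50 bases after the starts of Cd3g, Cd3d, Cd3e and Cd8a are printed from RefSeq (GRCm38.p6). Cd3e, Cd3g and Cd8a were highest in TIM-3+ Tex in every library, while the neighbour Cd3d was not. The same held for Zap70, whose stretch is not printed. In Tcm, Cd8a was below its level in Tn, where Cd3e and Cd3g were above theirs. Each printed stretch runs 5′ to 3′ on the strand of its gene, and capitals mark E-boxes, the motif CAGNTG on either strand.
Cd3g (chr9:44980382-44980681, minus strand): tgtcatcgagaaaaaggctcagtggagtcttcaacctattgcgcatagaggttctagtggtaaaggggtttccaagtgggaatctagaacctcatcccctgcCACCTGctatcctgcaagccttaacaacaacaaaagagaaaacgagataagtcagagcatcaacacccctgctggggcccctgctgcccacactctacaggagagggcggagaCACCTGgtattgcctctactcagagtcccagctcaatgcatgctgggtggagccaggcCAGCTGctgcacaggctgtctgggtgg
Cd3d (chr9:44981536-44981835, plus strand): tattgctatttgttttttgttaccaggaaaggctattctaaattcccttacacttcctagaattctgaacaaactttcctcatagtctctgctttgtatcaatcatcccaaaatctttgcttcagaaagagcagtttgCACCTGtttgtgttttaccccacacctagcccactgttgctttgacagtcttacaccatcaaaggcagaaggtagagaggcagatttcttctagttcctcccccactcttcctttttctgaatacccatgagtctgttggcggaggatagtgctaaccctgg
Cd3e (chr9:45009562-45009861, minus strand): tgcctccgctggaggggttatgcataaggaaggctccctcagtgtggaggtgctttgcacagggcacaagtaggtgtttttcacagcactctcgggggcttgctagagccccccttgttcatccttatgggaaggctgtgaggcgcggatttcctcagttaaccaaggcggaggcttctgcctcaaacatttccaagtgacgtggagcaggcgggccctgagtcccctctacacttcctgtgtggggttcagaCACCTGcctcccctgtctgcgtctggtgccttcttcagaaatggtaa
Cd8a (chr6:71373177-71373476, plus strand): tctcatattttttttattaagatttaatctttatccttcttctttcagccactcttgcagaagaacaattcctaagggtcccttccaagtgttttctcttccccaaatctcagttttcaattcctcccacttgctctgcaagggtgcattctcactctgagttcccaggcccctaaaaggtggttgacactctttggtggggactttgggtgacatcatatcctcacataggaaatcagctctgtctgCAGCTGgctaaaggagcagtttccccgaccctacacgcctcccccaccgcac
Of the 10 genes, 9 matched an entry of the promoter table. An E-box of this form was found in all 9 and in 51.4% of the 32851 promoters of the same length, and the form CACCTG, searched on both strands and contained in CAGNTG, in 7 of 9 and in 20.2%. Cd3g held 3 E-boxes, of which 2 had the form CACCTG, while Cd3d and Cd3e each held 1 of that form. GGAA, the core of ETS sites, was in all 9 but also in 96.0% of all promoters, and TATAAA was in none of the 9 and in 13.6% of all. The motif marked in capitals was chosen after the matches were counted, and a match describes letters only.

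Levels were the UMIs of a gene summed over the cells of a cluster in a library, scaled to CPM of those cells. Clusters were compared within each library as log2 ratios of CPM with 1 CPM added to both sides, and the median of the 4 libraries was taken. A gene was called higher or lower where all 4 libraries had the same sign and the median was at least 0.5, which is 1.41-fold. These are descriptions without a test, since there is 1 library per treatment, cells are not replicates and the clusters were made from the same transcripts. Exact 95% intervals cover counting error only. Cluster order follows the authors' naming, and neighbours in an order were set apart where all 4 libraries placed them the same way.

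Among the CD3 chains, Cd3e and Cd3g were highest in TIM-3+ Tex and lowest in Tn, while Cd3d and the ζ chain gene lay closer to their level in Tn. Cd3e measured 810, 813, 752 and 816 CPM in Tn of libraries 1 to 4, and 2259, 1915, 1994 and 2022 CPM in TIM-3+ Tex, where it was highest. All 4 libraries put TIM-3+ Tex above transitory Teff (1491 to 1620 CPM) and Tn below Tcm (894 to 984 CPM). Cd3g gave the same extremes, with 758, 780, 724 and 729 CPM in Tn and 2050, 1790, 1887 and 1859 CPM in TIM-3+ Tex. No library of any other cluster reached the TIM-3+ Tex values of either gene. Cd3d, by contrast, varied from a median of 1039 CPM in cycling cells to 1399 CPM in TIM-3+ Tex, and its order placed TIM-3+ Tex and transitory Teff (1380 CPM) too close to be set apart. Cd247 varied from 174 CPM in Tcm to 245 CPM in TIM-3+ Tex, and cycling cells, GzmB+ Teff and TIGIT+ Teff were each not apart from the next in its order, while GzmA+ Tex (216 CPM) lay above Tn (183 CPM) in 4 of 4 libraries.

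**Figure D1:**
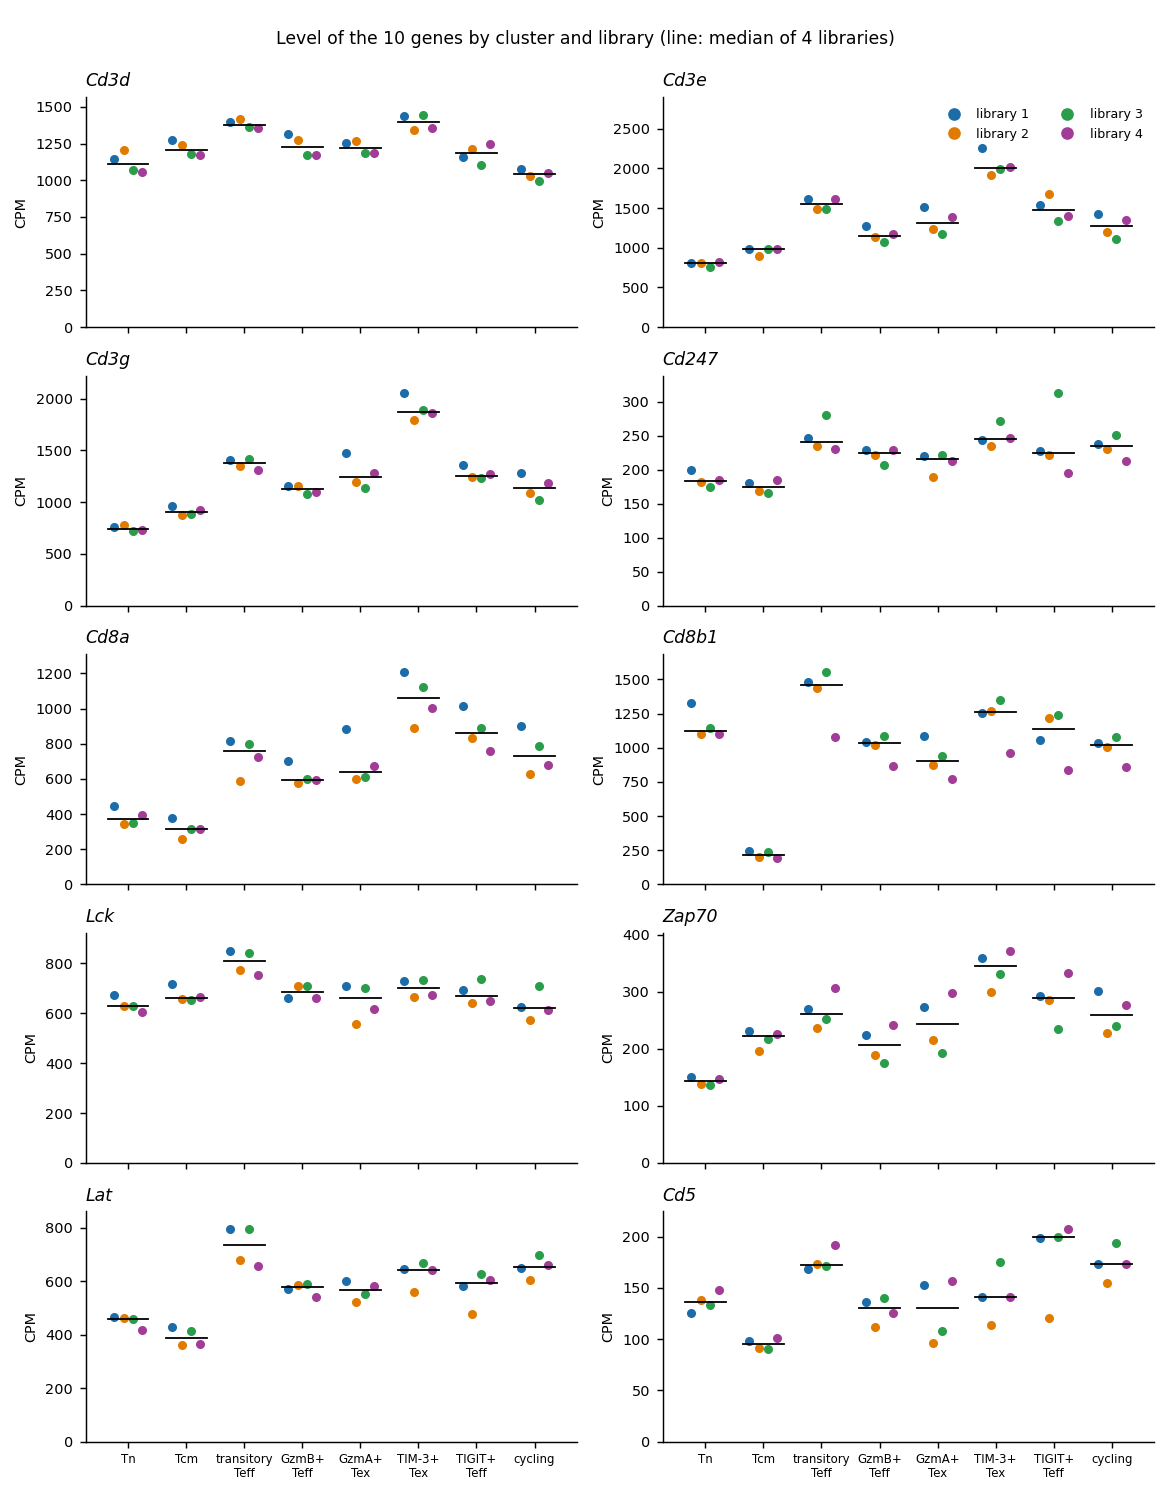
Level in CPM (linear axis from 0) of each of the 10 genes in the 8 clusters, with 1 point per library and a line at the median of the 4 libraries. Cd3e, Cd3g, Cd8a and Zap70 peak in TIM-3+ Tex (medians of 2008, 1873, 1062 and 346 CPM), whereas Cd8b1 has its lowest values, 196 to 242 CPM, in Tcm.

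The balance of the 4 chains therefore differed between clusters. Of the UMIs of Cd3d, Cd3e, Cd3g and Cd247 together, Cd3d took 39.3%, 40.5%, 39.4% and 37.8% in Tn of libraries 1 to 4. In TIM-3+ Tex it took 24.0%, 25.4%, 25.8% and 24.8%, a median difference of -14.3 percentage points within libraries. The share of Cd3e was 27.3% to 29.3% in Tn and 35.6% to 37.7% in TIM-3+ Tex, and that of Cd3g was 26.0% to 26.6% against 33.7% to 34.2%. Neither range overlapped between these clusters in either gene. Cd247 held 4.07% to 7.85% in every cluster of every library. Tcm stayed near Tn, with a median of 37.1% for Cd3d, and the remaining clusters lay between, from 27.8% in TIGIT+ Teff to 33.2% in GzmB+ Teff. UMIs of different genes are captured with different efficiency, so only differences of a share between clusters are read. Cd3e overlaps Gm48719 on the opposite strand, and Cd247 overlaps Gm37469 and Pou2f1, all of them in the table. Whether counting used the strand is not given in the sources used here, so reads of these pairs may not be told apart.

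**Figure D2:**
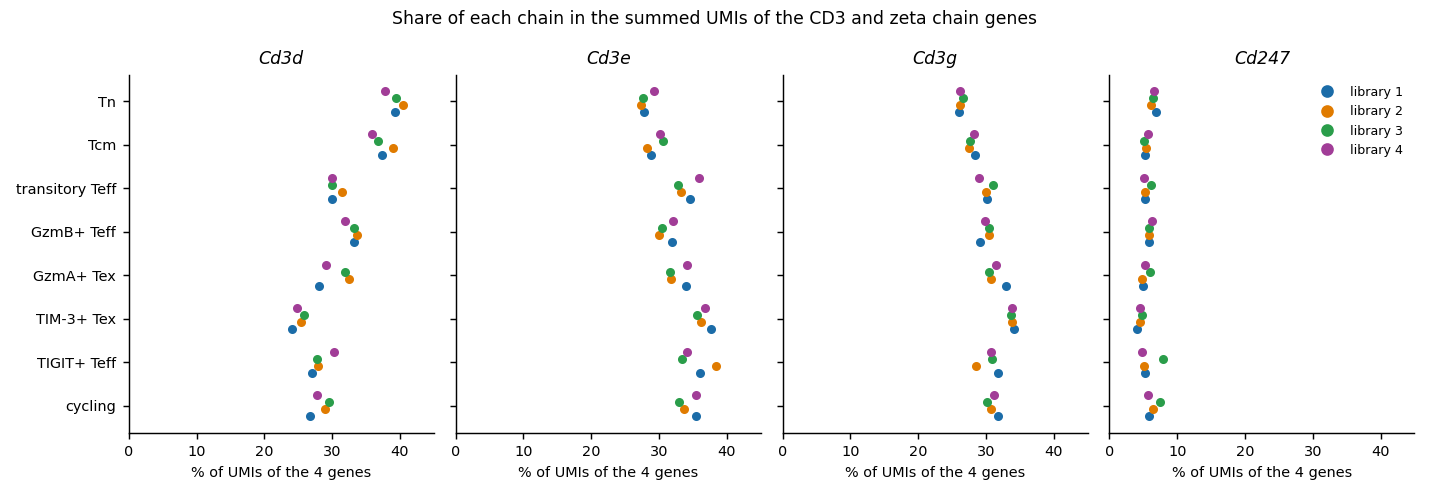
Share (percent, axis from 0 to 45) of Cd3d, Cd3e, Cd3g and Cd247 in their summed UMIs, by cluster, with 1 point per library. Cd3d lies at 37.8% to 40.5% in Tn and at 24.0% to 25.8% in TIM-3+ Tex, where Cd3e and Cd3g lie higher than in Tn in all 4 libraries.

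The CD8 chains did not move together. Cd8a measured 446, 343, 350 and 394 CPM in Tn and 1209, 889, 1122 and 1002 CPM in TIM-3+ Tex, a median ratio of 2.65-fold. TIGIT+ Teff followed with 1016, 832, 888 and 756 CPM, and GzmB+ Teff, with the lowest median of this group, had 577 to 704 CPM. Every library of these clusters lay above every library of Tn and Tcm. Cd8b1 had 1331, 1102, 1146 and 1098 CPM in Tn and 1253, 1271, 1353 and 963 CPM in TIM-3+ Tex, so that libraries 1 and 4 were lower and libraries 2 and 3 higher than in Tn. The most Cd8b1 was in transitory Teff, with 1483, 1435, 1556 and 1081 CPM.

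In Tcm, Cd8b1 was at 242, 196, 237 and 196 CPM, far below every other cluster, of which the lowest library had 772 CPM (GzmA+ Tex). The within-library log2 ratios of Tcm to Tn were -2.45, -2.48, -2.27 and -2.48, a median of 5.52-fold lower (95% interval over summed libraries -2.47 to -2.38). Cd8a was also lower in Tcm than in Tn in each library, but by a median log2 ratio of only -0.28, with 379, 256, 312 and 314 CPM in Tcm.

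The log2 ratio of Cd8b1 to Cd8a UMIs put these patterns on 1 scale. It was 1.58, 1.68, 1.71 and 1.48 in Tn and lower in all 7 other clusters of all 4 libraries. Transitory Teff had a median of 0.91, GzmB+ Teff of 0.70 and GzmA+ Tex of 0.42. Lower medians were those of cycling cells (0.40), TIGIT+ Teff (0.31) and TIM-3+ Tex (0.16). Transitory Teff was above each of the other Teff and Tex clusters in 4 of 4 libraries, and GzmA+ Tex and cycling cells were not apart. In Tcm the ratio was -0.64, -0.38, -0.40 and -0.68, a median of 2.13 log2 units or 4.39-fold below Tn. The ratio in Teff and Tex was lower mainly through Cd8a and in Tcm through Cd8b1.

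**Figure D3:**
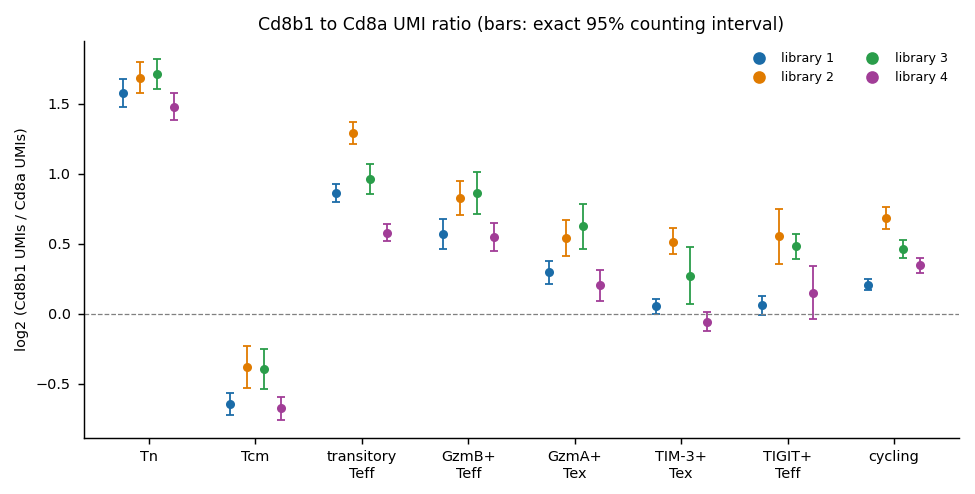
Log2 ratio of Cd8b1 to Cd8a UMIs in each cluster and library, with exact 95% counting intervals as bars and a dashed line where the UMIs are equal. Tn lies at 1.48 to 1.71 and Tcm, the only cluster below the line in all 4 libraries, at -0.68 to -0.38.

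In single cells Tcm had few Cd8b1 UMIs, with means of 1.43 to 1.87 per cell against 8.54 to 10.3 in Tn. At such a mean a count of 0 UMIs does not show that a cell lacked the transcript. No Cd8b1 UMI was found in 42.5%, 56.8%, 44.2% and 50.8% of Tcm cells of libraries 1 to 4, against 3.03%, 7.74%, 2.30% and 3.39% of Tn cells. Over all libraries, 1222 of 3418 Tcm cells (35.8%, 95% Clopper-Pearson interval 34.1% to 37.4%) had Cd8a and no Cd8b1 UMI, 1505 (44.0%) had both and 419 (12.3%) neither. Cells with Cd8a alone were 2.53% of Tn and 1.52% to 9.84% of the other clusters. Median depth was close, at 6958 UMIs per cell in Tcm and 7834 in Tn. After each cell had been thinned to 2500 UMIs, the share of cells with a Cd8b1 UMI had a median of 29.4% in Tcm and 87.5% in Tn, and a Cd8a UMI was found in 49.5% and 57.4%. Not all Tcm cells were low, since 258 (7.55%) carried 6 or more Cd8b1 UMIs, compared with 75.6% of Tn cells.

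Tcm cells with 0 Cd8b1 UMIs were set beside Tcm cells with 2 or more within each library, a division that uses the measured transcript and was made after its values had been seen. Cd8a was 323, 207, 240 and 276 CPM in the cells with 0 and 453, 344, 413 and 390 CPM in the cells with 2 or more, a median log2 ratio of -0.62. Cd5 was 82.3, 80.7, 70.4 and 86.8 CPM against 117, 118, 118 and 119 CPM, a ratio of -0.52. The remaining 7 genes, Cd8b1 left aside, lay between -0.24 (Lat) and 0.06 (Cd247) and were not called. Over all 2614 genes with at least 50 CPM on either side, 0.727% were called lower and 0.268% higher. Fcer1g, an ITAM adaptor of Fc and NK cell receptors, was 299, 432, 335 and 358 CPM in the cells with 0 and 160, 153, 161 and 167 CPM in the others. Tyrobp, the adaptor also called DAP12, had a ratio of 0.89, and Hcst, which encodes DAP10, an adaptor without an ITAM, had 0.16. The 4 genes of an NK cell list did not move together. Klrb1c, which encodes NK1.1, was called higher at 0.57. Klra8 was lower at -0.66 (4.14 to 7.12 against 6.62 to 12.7 CPM), but far below the 50 CPM of the genes counted above. Klre1, at 0.28, was not called, and Ncr1 was higher in 3 libraries and lower in library 4. The γδ receptor constant genes Tcrg-C4 and Trdc were at 52.4 to 74.5 and 8.64 to 11.6 CPM in the cells with 0, and at 31.9 to 60.4 and 4.86 to 6.49 CPM in the others. Tcrg-C1 had a ratio of 0.55, and Tcrg-C2, at 0.26, was not called. Trac, the αβ receptor constant gene, was present at 205 to 236 and 230 to 280 CPM. The cells with 0 Cd8b1 UMIs were also shallower in every library, with medians of 6074 to 6795 against 7410 to 7902 UMIs, and the part of depth or of cells of other kinds was not tested.

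**Figure D4:**
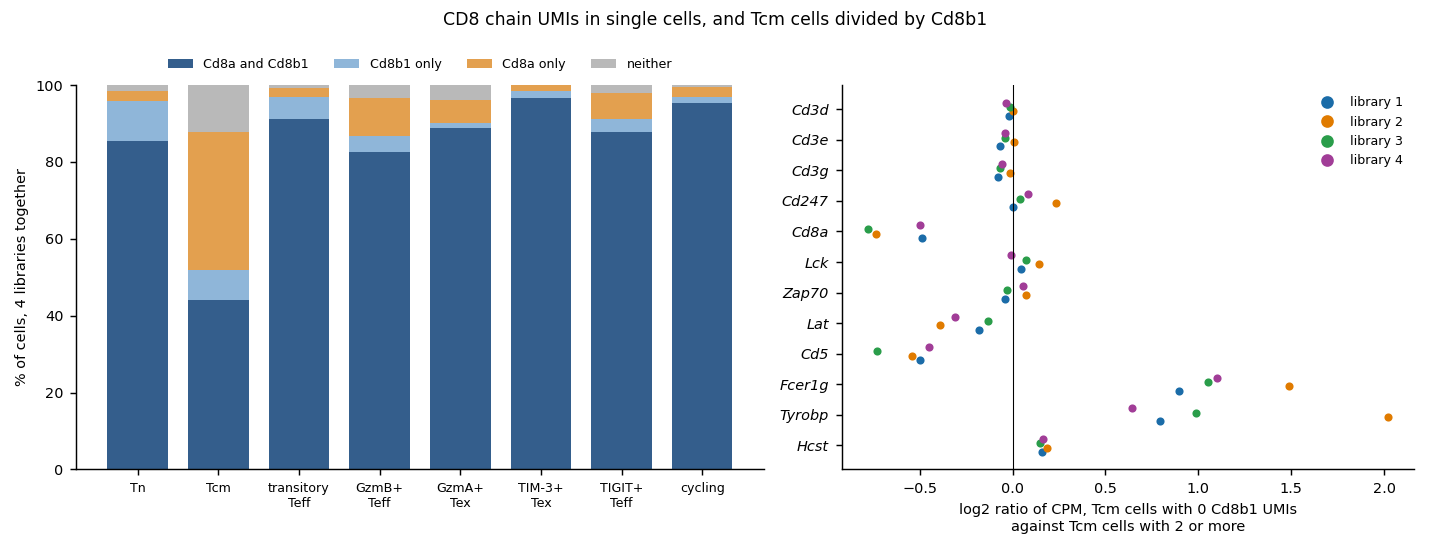
Left, percent of cells of each cluster (4 libraries together, axis from 0 to 100) with UMIs of both CD8 chains, of 1 chain or of neither, where 35.8% of Tcm cells had Cd8a alone. Right, log2 ratio of CPM of 12 genes between Tcm cells with 0 and with 2 or more Cd8b1 UMIs, with 1 point per library, where Fcer1g and Tyrobp are higher and Cd8a and Cd5 lower in all 4 libraries.

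Of the kinases, Zap70 followed Cd3e and Cd3g, and Lck changed little. Zap70 had 151, 139, 136 and 148 CPM in Tn, 231, 197, 218 and 227 CPM in Tcm and 360, 300, 331 and 373 CPM in TIM-3+ Tex. Tn was lowest and TIM-3+ Tex highest in every library, while the clusters from TIGIT+ Teff (289 CPM) down to Tcm (222 CPM) could not be set apart from their neighbours. Lck, which starts the cascade, ranged only from a median of 619 CPM in cycling cells to 808 CPM in transitory Teff. Transitory Teff was its one cluster apart from the next in the order. Lat had 466, 461, 457 and 418 CPM in Tn, 430, 362, 414 and 364 CPM in Tcm and 795, 680, 795 and 659 CPM in transitory Teff, which had its highest median. Cd5 was lowest in Tcm, with 98.0, 91.5, 90.0 and 101 CPM against 126, 139, 133 and 148 CPM in Tn. Its highest median was in TIGIT+ Teff (199 CPM), where library 2, with 50 cells, had only 121 CPM.

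Taking the 5 Teff and Tex clusters together against Tn, 4 of the 10 genes were called higher and 0 lower. Among the 2936 genes tested, 25.3% were called higher and 5.55% lower, and the median gene had a log2 ratio of 0.26. The 4 genes were Cd8a (1.04, libraries 0.96 to 1.16), Cd3e (0.92, 0.83 to 1.10), Cd3g (0.88, 0.81 to 1.05) and Zap70 (0.88, 0.74 to 1.07). With median-of-ratios size factors, which put the median gene near 0, they were at 0.78, 0.71, 0.67 and 0.64 and were called all the same. Lat, at 0.499, was just short of a call, and Cd247 had 0.31. Lat was called, at 0.50 to 0.60, in 10 of the alternatives, among them those without library 1 or 2, after thinning and per cell, but had only 0.19 with size factors. Cd5 (0.22), Cd3d (0.20) and Lck (0.17) lay above 0 on the CPM scale and below 0 with size factors, and Cd8b1 had 2 libraries on either side of 0. Counting 1 cell per clonotype, the 4 genes had ratios of 0.66 to 0.76.

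**Figure D5:**
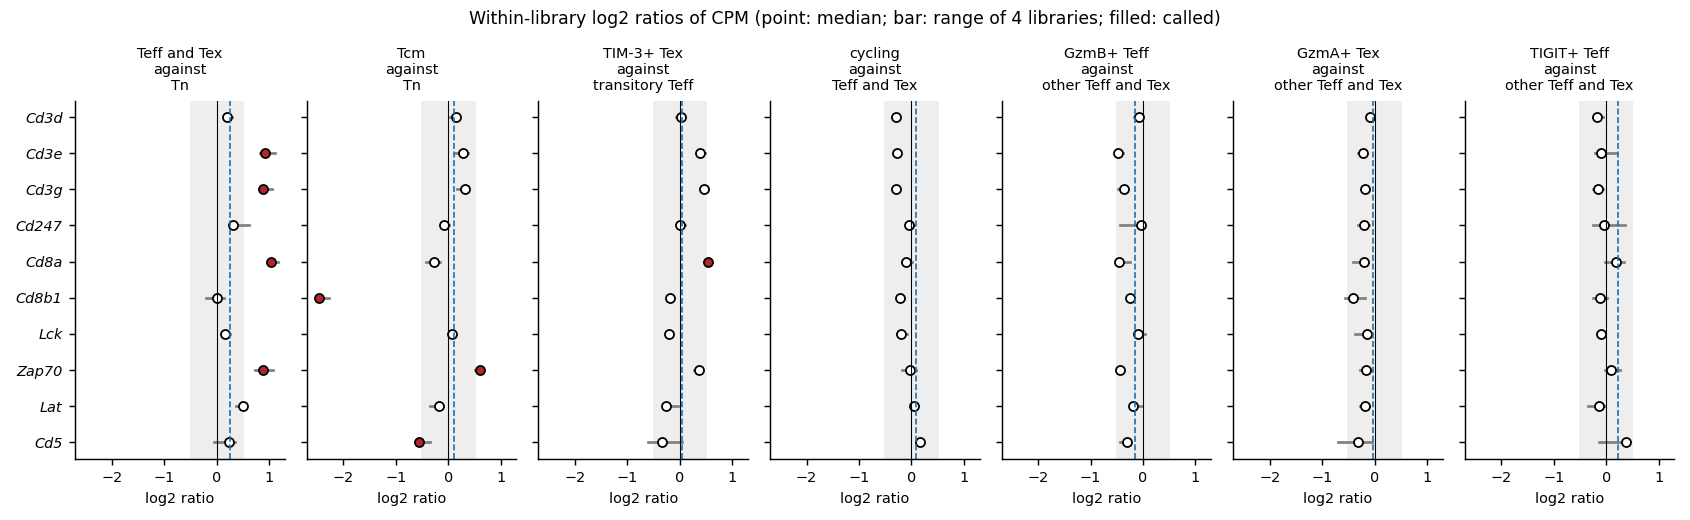
Median (point) and range over 4 libraries (bar) of the within-library log2 ratio of CPM for the 10 genes in 7 comparisons, with called genes filled, the range within 0.5 of 0 shaded and the median of all tested genes as a dashed line. Cd8b1 in Tcm against Tn, at -2.47, lies farthest from 0, and no gene is filled in the last 4 comparisons.

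Tcm against Tn gave 3 calls, where 9.73% of 2611 genes were called higher and 2.95% lower. Besides Cd8b1, Cd5 was lower at -0.55 (-0.59 to -0.36) and Zap70 higher at 0.61 (0.50 to 0.67). The Zap70 ratio was 0.496 when ribosomal, mitochondrial and receptor genes were left out of the total, just short of a call. Cd3g (0.32), Cd3e (0.27), Cd3d (0.14) and Lck (0.08) were slightly higher and Lat (-0.17) slightly lower in 4 of 4 libraries, with Lck below 0 with size factors, where the median gene had been at 0.11. Of the signalling adaptors that serve other receptors, Fcer1g and Tyrobp differed more than any of the 10 genes, and Hcst did not. Fcer1g had 229, 315, 261 and 274 CPM in Tcm and 4.69, 12.4, 11.9 and 15.2 CPM in Tn, a median log2 ratio of 4.45. Tyrobp had a ratio of 4.11, and Hcst had 0.71. GzmA+ Tex, the cluster with the most macrophage transcripts, also had 210 to 284 CPM of Fcer1g and 163 to 265 CPM of Tyrobp. The 4 NK cell genes summed to 580 to 672 CPM in Tcm and 52.5 to 78.6 CPM in Tn, with the activating receptor gene Ncr1 at 3.47 to 9.77 CPM in Tcm and at 0 UMIs in Tn. A list of 4 γδ T cell genes summed to 129 to 193 CPM in Tcm and 22.3 to 41.3 CPM in Tn, but also to 116 to 249 CPM in TIM-3+ Tex. The sum came mostly from the 3 Tcrg-C genes, and Trdc was lower in Tcm than in Tn in libraries 2 and 3. Their part in the Cd8b1 level was not tested.

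TIM-3+ Tex against transitory Teff gave 1 call, Cd8a, at 0.53 (0.47 to 0.60), where 4.53% of 2891 genes were called higher and 3.39% lower (7.92% in all). Cd3g (0.46), Cd3e (0.39) and Zap70 (0.37) were higher, and Cd8b1 (-0.19), Lck (-0.21) and Lat (-0.26) lower, in 4 of 4 libraries, all below the size for a call. Cd8a was at 0.49 without library 1, without library 2 and with size factors, in each case not called. Counted as UMIs per cell, which follows the deeper cells of TIM-3+ Tex, all 10 genes were above 0 and 6 were called higher. The median of all tested genes on that scale was 0.58, itself above the size for a call. The share of all genes called per cell was not counted.

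None of the 10 genes was called in cycling cells against Teff and Tex, where 16.5% of 3281 genes were called higher and 5.73% lower (22.2% in all). Cd3g (-0.30), Cd3d (-0.30), Cd3e (-0.27), Cd8b1 (-0.22) and Lck (-0.21) were lower in 4 of 4 libraries by CPM, but higher per cell, where 7 of the 10 genes were called, since cycling cells had a median of 13960 UMIs. Per cell, the median of all tested genes was 0.81, itself above the size for a call. The share of all genes called on that scale was not counted. In GzmB+ Teff against the other 4 Teff and Tex clusters, 0 of 10 were called, against 5.91% of genes higher and 9.62% lower (15.5% in all). The medians there ran from -0.48 (Cd3e) to -0.03 (Cd247), with the median of all genes at -0.15, and Cd3d, Cd247 and Lck lay above 0 with size factors. Cd3e, Cd8a and Zap70 were lower in each library, at -0.48, -0.45 and -0.44. GzmA+ Tex gave 0 calls, against 1.42% of genes higher and 1.05% lower (2.47% in all), and Cd8b1 had its lowest ratio, -0.42 (-0.56 to -0.19). Without library 1 or without library 4, Cd5 was called lower there, at -0.54. TIGIT+ Teff had 0 of 10 called, against 33.5% of genes higher and 1.95% lower (35.5% in all). The median of all genes there was 0.22, and 3 of the 10 lay above 0 by CPM and 1 with size factors. Cd5 was at 0.38 there, higher in 3 of 4 libraries, and library 2 had -0.15.

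The other genes of the pathway came from a list of 47 genes of receptor signalling. In Teff and Tex against Tn, 22 of the 41 tested were called higher and 1 lower, beside 25.3% and 5.55% of all genes tested, and the list's median log2 ratio was 0.52 where that of all genes was 0.26. The 3 receptor constant genes were all higher, with Trac at 0.89, Trbc1 at 0.92 and Trbc2 at 0.98. Of the 7 tested negative regulators 6 were higher, and the list's highest ratio was that of 1 of them, Ubash3b (1.87, 118 against 29.5 CPM), which encodes the phosphatase STS-1. Sh2d2a, an adaptor that binds Lck, had 1.78 and Lax1, an adaptor that limits receptor signalling, had 1.26. Sit1, a transmembrane adaptor, was lower at -0.52. Fyn, the other Src family kinase of the receptor, was higher at 1.13, unlike Lck.

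In Tcm against Tn, 10 of 40 pathway genes were higher and 4 lower, beside 9.73% and 2.95% of all genes, with medians of 0.28 for the list and 0.11 for all genes. Dok2, which dampens receptor signalling, led at 1.53, followed by Tespa1 at 0.82 and Fyn at 0.72. Themis, needed for T cell selection in the thymus, was at -0.81, Sit1 at -0.74 and Cd6, a receptor related to CD5, at -0.57. In TIM-3+ Tex against transitory Teff, 3 of 39 were higher, beside 4.53% of all genes, namely Ubash3b (0.89), Sh2d2a (0.72) and the ubiquitin ligase gene Cblb (0.64). Another 3 were lower, beside 3.39%, with Tespa1 at -1.08, Prkcq, which encodes PKCθ, at -0.76 and Dgka, a diacylglycerol kinase gene, at -0.58. In GzmB+ Teff 9 of 40 were lower and 1 higher, beside 9.62% and 5.91% of all genes, with Ubash3b at -1.15 and Sh2d2a at -0.93. None of the 40 was called in GzmA+ Tex, where 2.47% of all genes were. Cycling cells had 2 of 40 lower (Tespa1 at -0.76 and Lax1 at -0.65) and 0 higher, beside 5.73% and 16.5% of all genes. TIGIT+ Teff had 16 of 41 higher, a share near the 33.5% of all genes, led by Malt1 at 1.37, the phosphatase CD45 gene Ptprc at 1.25 and Cbl at 1.13.

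The levels also differed between libraries in ways that ran through the clusters. Cd8a was highest in library 1 in 8 of 8 clusters and lowest in library 2 in 7. Of 4077 genes, 1.72% had the same library highest in all 8 clusters. Cd8b1 was lowest in library 4 in 8 of 8 clusters, as 2.94% of genes were lowest in the same library throughout. Libraries 4 and 2 were nearly equal in Tn (1098 and 1102 CPM) and in Tcm (196.2 and 196.3 CPM), however. Library 4 was thus never the lowest for Cd8a except in TIGIT+ Teff, and the 2 chains ranked the libraries differently. Treatment, mice and library preparation cannot be told apart here.

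Clones were compared in transitory Teff, between cells of clones of more than 5 cells in their library and cells of clones seen once. Cd3e was 1900, 1779, 1897 and 1832 CPM in the expanded clones and 1304, 1177, 1192 and 1352 CPM in the single ones, a median log2 ratio of 0.57. Cd8a was 958, 686, 973 and 815 CPM against 601, 482, 505 and 647 CPM, a ratio of 0.59 (0.33 to 0.94). The values of the 2 clone classes did not overlap for either gene. These 2 of 10 genes were called higher, where 2.97% of 2897 genes were higher and 2.83% lower, and Cd3g (0.48) came close. The call of Cd8a was lost after thinning (0.47), by cluster number (0.39) and without cells with 3 or more UMIs of the lineage marker lists (0.47). Between 49 and 109 single-clone cells entered per library, and they were deeper than the expanded ones in each (medians of 5438 to 6499 against 4192 to 5338 UMIs). Cells with and without a TCR call did not differ enough for a call in any of the 10 genes in transitory Teff, where 0.681% of genes were called higher and 0.215% lower, or in cycling cells, with 1.42% and 1.08%. In Tcm, Cd8b1 was lower in cells with a TCR call, at -0.58 (-1.33 to -0.41), with 0.384% of genes called lower and 0.153% higher. Only 33 cells of library 2 entered without a call, and cells without a call were deeper in all 4 libraries. Cells without a call were also deeper in transitory Teff, with medians of 8276 to 11052.5 against 4723 to 5472.5 UMIs. In cycling cells the medians were 16848 to 17524 against 9325 to 12535 UMIs. The part of depth was not tested.

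Likeness of pattern was the Pearson r of log2(CPM + 10) over the 32 sums of 8 clusters and 4 libraries, with the mean of each library removed. The sums share libraries, and all 32 share the cells' clustering, so r is given as a description. Cd3e and Cd3g were each other's nearest of 4077 genes (r = 0.98). Cd3e was next closest to Ndfip1, and Cd3g to Nkg7, which encodes a cytotoxic granule protein. Cd8a was closest to the checkpoint receptor genes Ctla4 (0.97) and Pdcd1 (0.96), and Zap70 to Nkg7 (0.94) and Sh2d2a (0.94). Cd8b1 was closest to Gm8369 (0.90) and Inpp4b (0.83), Lat to Lsp1 (0.95) and S100a10 (0.91), and Cd5 to Themis (0.80) and Cd6 (0.79). Cd3d was nearest to Bnip3l (0.86) and Gimap5 (0.86), Cd247 to Stk32c (0.87) and Cd8a (0.85), and Lck to Ccndbp1 (0.75) and Xpa (0.73). Within the 10 genes the lowest r was that of Cd3d with Cd5, at -0.03, and Cd3d and Cd3e reached 0.60.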

How the data were processed

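The authors aligned 5′ single-cell libraries with Cell Ranger 7.00 to mm10 (per the submitters' processing notes), downsampled reads across libraries and kept cells by UMI number, mitochondrial share and Cd3e/g and Cd8a expression. Each deposited expression value is an unnormalized UMI count of 1 gene in 1 cell. The deposited cell table gives UMI totals as a count, the mitochondrial share as a fraction, and the authors' cluster names and numbers, and the TCR table their scRepertoire clonotypes. In 721 cells the table held fewer UMIs than the deposited total, by 870 in all. GENCODE M21 (GRCm38) named 17549 of 17561 genes.

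UMIs were summed per cluster and library, and no p-value was computed. Genes counted in the background needed 50 CPM on either side. Intervals are exact (Poisson, conditional binomial or Clopper-Pearson) at 95%. Cells were thinned to 2500 UMIs with seed 7. Doublets were not called, and the sources used here do not state their removal, so some may remain. Alternatives left out cells with 2 TRB chains (722) or with 3 or more UMIs of macrophage, B and plasma, neutrophil or erythroid markers (4239 of 11754 cells). The highest macrophage gene in every cluster but GzmA+ Tex was Ctss, and the highest B and plasma gene in most clusters was Ighm. Both were found in all clusters, so the cells left out need not be of another lineage. Named were all 10 genes, the 3 pathway genes with the largest called ratio in each direction, 3 signalling adaptors of other receptors, marker lists and the 2 genes most alike each member. Genes named outside this rule were chosen after their values were seen. The members and lists were chosen with earlier results of these data known. The labels give 5000000 grafted T cells, and the study's text gives another dose. The scripts ran under Python 3.11.15. Sums and intervals came from pandas 2.3.3 and scipy 1.17.1, thinning from numpy 2.4.6, and plots from matplotlib 3.10.9. The ratios and calls were tested on simulated data drawn with counting error only, so variation between libraries was not part of that test.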

Additional observations from a re-analysis of the deposited data

Results flagged for a closer look

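Of the 80 levels of 10 genes in 8 clusters, 5 had 1 library far from the other 3, by Dixon's ratio of the gap to the range. Chance alone would set apart about 1 in 20 such groups. Cd3e in Tn was 752 CPM in library 3 and 810 to 816 CPM in the others. Cd3e in Tcm was 894 CPM in library 2 and 980 to 984 CPM in the others. Cd8a in GzmB+ Teff was 704 CPM in library 1 and 577 to 597 CPM in the others. Lck in Tcm was 717 CPM in library 1 and 654 to 663 CPM in the others. Cd5 in TIGIT+ Teff was 121 CPM in library 2, from 50 cells, and 198 to 207 CPM in the others.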

How the results depend on the processing

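Clusters were compared within each library throughout. Between treatments no paired analysis was possible because each treatment is 1 library and no library number is tied to a treatment. No called gene changed sign under any alternative, libraries left out included. The 4 calls in Teff and Tex against Tn and the 3 in Tcm against Tn fell to 1 each with a size of 1 for a call, and without 1 library they numbered 4 to 5 and 3. The 4 became 5, with Lat added, per cell, after thinning, with mean per-cell CPM, by cluster number, without lineage marker cells, without cells with 2 TRB chains, and without GzmA+ Tex or TIGIT+ Teff. In TIM-3+ Tex against transitory Teff the count of 1 became 0 with receptor, ribosomal and mitochondrial genes left out, with median-of-ratios size factors and with a size of 1. It became 2 with mean per-cell CPM, by cluster number and without lineage marker cells, 3 with 1 cell per clonotype and 6 per cell, and 0 to 2 without 1 library. The counts of 0 became 7 per cell in cycling cells. In GzmB+ Teff they became 3 after thinning, 1 with mean per-cell CPM and 4 without lineage marker cells or with 1 cell per clonotype. In GzmA+ Tex they became 2 without lineage marker cells and 0 to 1 without 1 library. In TIGIT+ Teff they became 1 after thinning, with mean per-cell CPM and with 1 cell per clonotype. The difference in Cd8b1 to Cd8a ratio between Tcm and Tn moved from -2.13 to -2.32 after thinning and -2.30 without lineage marker cells or with 1 cell per clonotype, and was -2.16 to -2.11 without 1 library. The Cd3d share difference of -14.3 points became -15.9 without lineage marker cells and -15.0 to -13.5 without 1 library. By clone size, 2 calls became 1 after thinning and by cluster number, 3 without cells with 2 TRB chains, with 1 cell per clonotype and with clonotypes by TRB CDR3, and stayed 2 without any 1 library. Without thinning, the median share of Tcm cells with Cd8b1 was 52.5%, in place of 29.4%, an alternative added after the data were seen, as were leaving out GzmA+ Tex or TIGIT+ Teff and libraries in the TCR comparison. The causes were not tested. The 31 TIM-3+ Tex cells of library 3 and 50 TIGIT+ Teff cells of library 2 limit those values, and Cd247, Zap70 and Cd5 gave few UMIs per cell.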
